A study of Mus musculus with 48 samples.

Results

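Imprinted genes are described here across 48 mouse sarcomas: 10 genes of the 36854 counted in each tumour. The 10 are Sgce, Peg10, Dlk1, Meg3, Rian, Mirg, H19, Igf2, Peg3 and Mest, matched to the count table by their Ensembl mouse identifiers. They were listed because Sgce and Rian were far higher in primary tumours than in allografts, that is, they were chosen by their CPM values in tumours of the 8 groups. The other 8 are imprinted genes listed with them. Differences of members between the kinds are therefore given as values. Dose and antibody, which the choice did not use, were tested, as was their interaction with tumour kind; for Sgce and Rian the interaction is given as a value. All 10 had counts in every one of the 48 tumours and passed the filter on low counts in each fit.

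The study measured poly(A) RNA by bulk sequencing in sarcomas of the gastrocnemius muscle of mice of strain background 129/SvJae. Primary tumours arose in p53FL/FL mice aged 6 to 10 weeks after an intramuscular injection of Adeno-Cre, which deletes the floxed p53 alleles, and then 300 µg of the carcinogen MCA. Allografts were grown from 50000 cells of a single cell line, 402230, placed with matrigel into the same muscle of syngeneic mice, so the spread among allografts is not a spread among lines. At about 150 mm3 each mouse received 200 µg of muDX400, a murine anti-PD-1 antibody, or isotype control, followed at once by 0 or 20 Gy to the hind limb, and tumours were taken on day 3. The 8 groups therefore combine tumour kind, dose and antibody, with 4 tumours in each of the 4 allograft groups and 8 in each of the 4 primary groups. What sets the kinds apart (origin in the host against a passaged line, carcinogen, matrigel) cannot be told apart in this design. Animal identifiers also differed, beginning with the digit 4 in 30 of 32 primary tumours and 5 of 16 allografts, and in 8 of 8 and 0 of 4 of the untreated isotype tumours.

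An imprinted gene is transcribed mainly from the copy inherited from one parent, because a control region near it was methylated in only the egg or only the sperm. Neighbouring imprinted genes share such a region, and within a cluster some are read from the paternal copy and others from the maternal copy. Many imprinted genes are active in the embryo and in mesenchymal and muscle precursors and decline after birth.

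The 10 genes lie in 5 places of the GRCm38 assembly. On chromosome 6, Sgce (4674350-4747207, minus strand) and Peg10 (4747306-4760517, plus strand) start 99 bp apart and are transcribed away from each other. Sgce encodes epsilon-sarcoglycan, a membrane glycoprotein, and Peg10 is a paternally expressed gene derived from a retrotransposon and needed in the placenta. Chromosome 12 holds Dlk1 (109452823-109463336), Meg3 (109541001-109571726), Rian (109603940-109661716) and Mirg (109729764-109749460), all on the plus strand within 296.6 kb. Dlk1, a transmembrane protein related to the Notch ligands, is read from the paternal copy there, whereas Meg3, Rian and Mirg are maternal noncoding RNAs, Rian being a host of small nucleolar RNAs and Mirg of microRNAs. On chromosome 7, H19 (142575529-142578143, minus strand), a maternal noncoding RNA, lies 72.6 kb from Igf2 (142650766-142666816, minus strand), the paternal growth factor gene. Peg3 (chromosome 7, 6703892-6730431, minus strand) encodes a zinc-finger protein, and Mest (chromosome 6, 30723547-30748465, plus strand) a hydrolase-like protein; both are paternally expressed, and Mest lies 26.0 Mb from Peg10.

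Promoter windows of 300 bases (250 before to 50 after the start) were found in the RefSeq table of build GRCm38.p6 for 7 of the 10 members, 13 windows in all; Sgce, Peg10 and H19 had no entry. Those of Dlk1 and Meg3 are shown because these neighbours stand at the head of the chromosome 12 interval and are read from opposite parental copies, and that of Mest because Mest differed between doses. Each is written 5′ to 3′ on the gene's strand, with capitals marking TGCCGC on either strand, the core that the imprint factor ZFP57 recognises when methylated.
Dlk1, chr12:109452573-109452872, plus strand: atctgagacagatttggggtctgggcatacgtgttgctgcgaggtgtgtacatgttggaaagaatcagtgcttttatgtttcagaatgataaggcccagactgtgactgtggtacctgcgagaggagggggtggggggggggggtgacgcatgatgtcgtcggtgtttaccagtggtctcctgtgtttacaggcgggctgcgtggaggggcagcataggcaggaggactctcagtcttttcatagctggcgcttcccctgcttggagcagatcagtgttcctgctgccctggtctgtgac
Meg3, chr12:109540746-109541045, plus strand: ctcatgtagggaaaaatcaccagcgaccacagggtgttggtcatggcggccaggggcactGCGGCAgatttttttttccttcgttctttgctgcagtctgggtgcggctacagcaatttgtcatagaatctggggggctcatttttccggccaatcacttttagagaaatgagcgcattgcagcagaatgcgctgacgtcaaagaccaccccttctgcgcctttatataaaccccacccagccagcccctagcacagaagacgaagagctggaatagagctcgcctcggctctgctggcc
Mest, chr6:30737800-30738099, plus strand: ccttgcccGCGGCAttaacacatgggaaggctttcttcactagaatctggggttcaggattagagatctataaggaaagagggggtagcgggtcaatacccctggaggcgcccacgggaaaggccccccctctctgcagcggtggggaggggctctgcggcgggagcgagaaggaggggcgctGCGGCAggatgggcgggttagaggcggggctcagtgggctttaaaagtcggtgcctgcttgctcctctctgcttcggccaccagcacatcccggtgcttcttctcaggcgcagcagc
TGCCGC matched 2 times in the Mest window shown, 1 time in that of Meg3 and 0 times in that of Dlk1. Mest has 2 more windows, of which one, shifted by 3 bases, held the same 2 matches and the other, upstream, held 0, and the other window of Meg3 held 0. Of the 4 windows of Igf2, 1 held a match, and those of Rian, Mirg and Peg3 held 0. Over the 32851 windows of the table, 11.6% held at least 1 match and 1.53% at least 2. GCCATNTT, a YY1 motif, was found on neither strand in any of the 13 windows of members and in 6.05% of all windows. The windows shown for Mest, Meg3 and Dlk1 contained 17, 13 and 9 CG dinucleotides, against a median of 7 over all windows. As many or more were found in 31.4%, 37.9% and 45.8% of all windows. The upstream window of Mest contained 8, the other window of Meg3 1 and that of Rian 0.

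Between Dlk1 and the end of Mirg, RefSeq places 57 microRNA hairpins, 3 of them within Rian and 14 within Mirg. The 49 microRNA entries of the count table in that interval had a summed level of 0.208 to 2.72 CPM (median 0.803) in primary tumours and 0 to 0.266 CPM (median 0.0674) in allografts. These are reads of longer poly(A) transcripts that cross the hairpins and not mature microRNAs. Of these entries only Mir433 and Mir434, between Meg3 and Rian, passed the filter on low counts, and their mature forms from the hairpin's 3′ arm are shown with the seed (bases 2 to 8) in capitals.
mmu-miR-433-3p: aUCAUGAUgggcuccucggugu
mmu-miR-434-3p: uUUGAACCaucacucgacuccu
The seeds of the pair differ. Reads over Mir433 were counted in 30 of 32 primary tumours and 9 of 16 allografts, and over Mir434 in 30 and 7. Both hairpins lie inside the gene Rtl1, which is on the opposite strand. The counting's strand setting is not given in the sources used here, so these reads may belong to Rtl1.

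Values are given as CPM, counts scaled to a common library size, with TMM factors that adjust for composition. The libraries held 31810461 to 54008259 counts (median 41178460), and mitochondrial genes took 0.371% to 2.71% of them. Skeletal muscle markers were present in every group, with summed levels from 18.4 to 100700 CPM in single tumours. Per kilobase of exon, the median level in primary tumours was highest for H19 (326 CPM per kb), followed by Dlk1 (34.3), Mest (10.4), Peg10 (9.91), Rian (8.81) and Meg3 (6.72). Sgce, at 4.72 CPM per kb, stood above Igf2 (0.954), Mirg (0.878) and Peg3 (0.318). In allografts H19 (310 CPM per kb) was again the highest, followed by Mest (12.7), and the other 8 had medians between 0.0738 (Mirg) and 1.01 (Peg10). The plot of all members by tumour shows these levels before scaling by length.

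**Figure D1:**
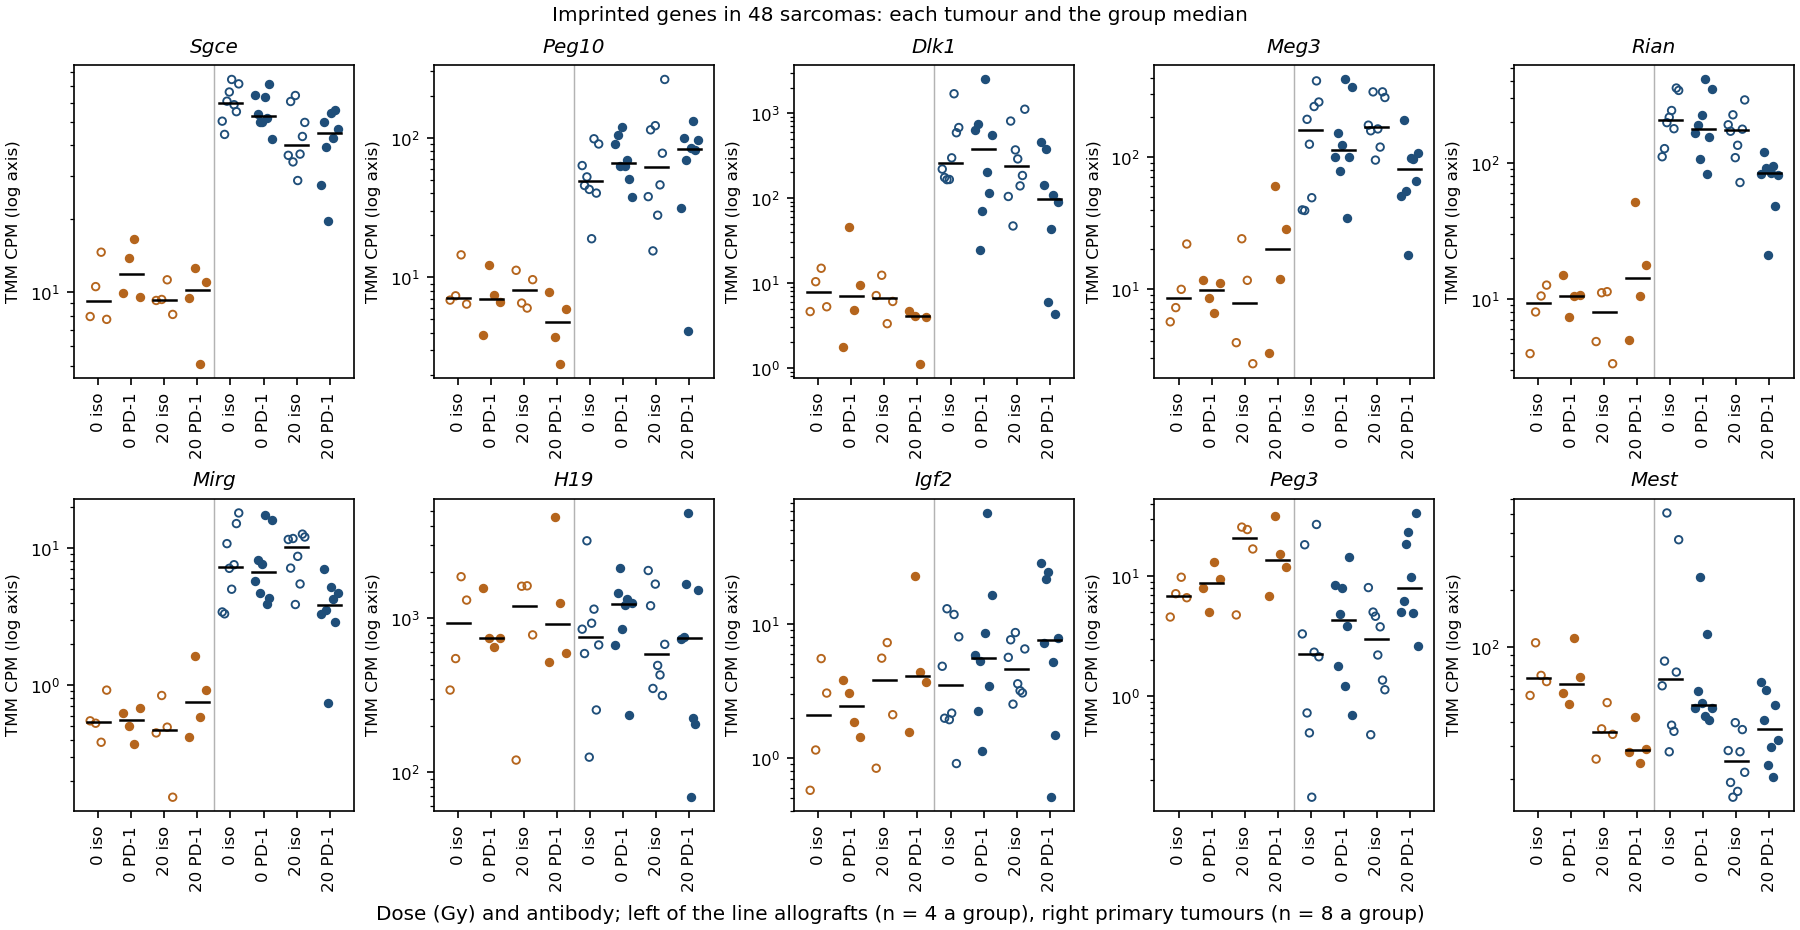
TMM-scaled CPM (log axis) of each imprinted gene in each of 48 sarcomas, by dose and antibody; brown points are allografts (n = 4 a group), blue points primary tumours (n = 8 a group), open points isotype, filled points anti-PD-1, and bars group medians. Sgce separates the tumour kinds in all 48 tumours, whereas H19 and Igf2 overlap throughout.

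The 6 genes of the Sgce and Dlk1 clusters were each higher in 25 to 32 of the 32 primary tumours than in any allograft, whereas H19, Igf2, Peg3 and Mest overlapped between the kinds. The choice of genes used these values. The share of all genes that separate the kinds as far over all tumours was not counted, so nothing is read from these counts. Sgce ranged from 19.5 to 74.6 CPM (median 50.1) in the 32 primary tumours and from 5.09 to 16.6 CPM (median 9.74) in the 16 allografts, so no primary tumour overlapped with an allograft. Its neighbour Peg10 ranged from 4.11 to 260.5 CPM (median 66.0) in primary tumours and from 2.41 to 14.5 CPM (median 6.75) in allografts. All but 1 primary tumour exceeded the highest allograft for Peg10. The ratio of medians, primary over allograft, was 5.15 for Sgce and 9.79 for Peg10.

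In the chromosome 12 cluster, Rian ranged from 20.9 to 409 CPM (median 160.6) in primary tumours and from 3.32 to 51.3 CPM (median 10.5) in allografts, a ratio of medians of 15.4. Mirg, the least abundant of the cluster, ranged from 0.742 to 18.1 CPM (median 6.40) and from 0.152 to 1.62 CPM (median 0.538), a ratio of 11.9. For Rian 30 and for Mirg 31 of 32 primary tumours lay above the highest allograft. Meg3 showed a ratio of 11.6, from a median of 121.6 CPM (18.1 to 387.5) in primary tumours and 10.5 CPM (2.71 to 60.5) in allografts. Dlk1 was both the most different and the most variable member, at 4.32 to 2490 CPM (median 193.8) in primary tumours and 1.12 to 45.8 CPM (median 5.02) in allografts. Its ratio of medians was 38.6, with 28 of 32 primary tumours above the highest allograft, and the count was 25 of 32 for Meg3. The bulk tissue does not show whether fewer cells with a transcript or less transcript per cell sets such a level.

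The remaining members overlapped between the kinds. H19, by far the most abundant, had medians of 803 CPM in primary tumours (68.6 to 4846) and 764 CPM in allografts (120 to 4551). Igf2 had medians of 5.46 and 3.04 CPM, and 28 of 32 primary tumours fell within the range of the allografts. Peg3 went the other way, with a median of 4.24 CPM (0.144 to 33.8) in primary tumours against 9.69 CPM (4.58 to 31.98) in allografts, and 16 of 32 primary tumours lay below the lowest allograft. For Mest the medians were 41.1 and 50.3 CPM, with 22 of 32 primary tumours within the range of the allografts.

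In the untreated isotype tumours the edgeR log2 difference (primary minus allograft, 8 against 4 tumours) was 2.56 for Sgce, 2.68 for Peg10, 4.65 for Rian, 3.89 for Meg3, 3.88 for Mirg and 5.84 for Dlk1. All 6 had every primary tumour above every allograft there, which held for 4.73% of all genes tested. The other members stood at -0.07 (H19), -0.05 (Peg3), 1.02 (Mest) and 1.12 (Igf2). Single tumours decided several of these values. Dlk1 stood at 5.20 without primary replicate 6, H19 at -0.67 and Mest at 0.39 without primary replicate 3, Peg3 at -0.89 without primary replicate 7 and Igf2 at 1.81 without allograft replicate 3, and H19 and Peg3 changed sign when others were left out (-0.67 to 0.39 and -0.89 to 0.16).

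The 3 treated arms are not independent of the choice of Sgce and Rian, which was not limited to untreated tumours, and Meg3 and Mirg follow Rian from tumour to tumour (below). By edgeR's quasi-likelihood test (adjusted p below 0.05, Benjamini-Hochberg over 19327 genes), 4, 4 and 3 of the 8 members other than Sgce and Rian would count as higher in primary tumours under anti-PD-1 at 0 Gy, isotype with 20 Gy and anti-PD-1 with 20 Gy, where 3.97%, 2.42% and 3.73% of all genes were called higher; these counts are printed for completeness and nothing is read from them. Under anti-PD-1 at 0 Gy, Dlk1 had 1.78, 45.8, 4.79 and 9.36 CPM in the allografts and 24.5 to 2490 CPM (median 378) in the primary tumours, so only 1 allograft, replicate 2, reached into the primary range. The log2 difference was 5.29 (SE 1.26), and 6.83 without that allograft and 4.44 without primary replicate 5. Mirg, with 0.369 to 0.685 CPM in the allografts and 3.88 to 17.5 CPM in the primary tumours, differed by 3.96 (SE 0.58) without overlap, which held for 3.3% of all genes, higher in primary tumours. Peg10 (3.30, SE 0.64) and Meg3 (4.12, SE 0.79) did not overlap either.

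Under isotype with 20 Gy, Peg10 had 11.2, 6.55, 6.03 and 9.62 CPM in the allografts and 15.5 to 260.5 CPM (median 61.6) in the primary tumours, a log2 difference of 3.39 (SE 0.64). Meg3 had 3.91, 24.0, 11.6 and 2.71 CPM in the allografts and 94.8 to 312 CPM (median 169) in the primary tumours, a log2 difference of 4.26 (SE 0.79) that was 5.06 without allograft replicate 2. In this arm both separated the kinds without overlap, which held for 2.33% of all genes, as did Mirg at 4.23 (SE 0.59) and Dlk1 at 5.72 (SE 1.29). Peg3 had a log2 difference of -2.43 (SE 0.80).

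Under anti-PD-1 with 20 Gy, Meg3 had 3.27, 60.5, 11.8 and 28.6 CPM in the allografts and 18.1 to 190 CPM (median 81.7) in the primary tumours, a log2 difference of 1.71 (SE 0.68). Mirg stood at 2.16 (SE 0.52), Peg10 at 3.91 (SE 0.66) and Dlk1 at 5.47 (SE 1.27), each with some overlap between the groups. In a fit of only the 2 groups of this arm, 1 of 17674 genes was called, against 1309 of 19327 in the fit of all tumours. Without allograft replicate 3 of the arm 155 of 19613 genes were called, without primary replicate 4 2356 of 19286, and without allograft replicate 2 529 of 19604.

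For Sgce the log2 differences in the 3 treated arms, in the same order, were 2.16, 2.22 and 2.14 (SE 0.26 in each), with no overlap in any arm. In the last of these arms 1.28% of all genes were higher in every primary tumour. For Rian they were 4.28 (SE 0.57), 4.49 (SE 0.57) and 1.88 (SE 0.49), with overlap only in the last. Allograft replicate 2 of that last arm, which had the highest Meg3, Rian and Mirg of all allografts, set much of its value: without it the difference was 2.81 for Rian, 2.53 for Meg3 and 2.62 for Mirg, and those of H19 and Igf2 went from -0.47 to 0.68 and from 0.58 to 1.90. Among H19, Igf2, Peg3 and Mest the largest differences were the 2.44 of Igf2 under anti-PD-1 at 0 Gy (SE 0.96), which was 1.33 without primary replicate 6, and the -2.43 of Peg3 given above.

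**Figure D2:**
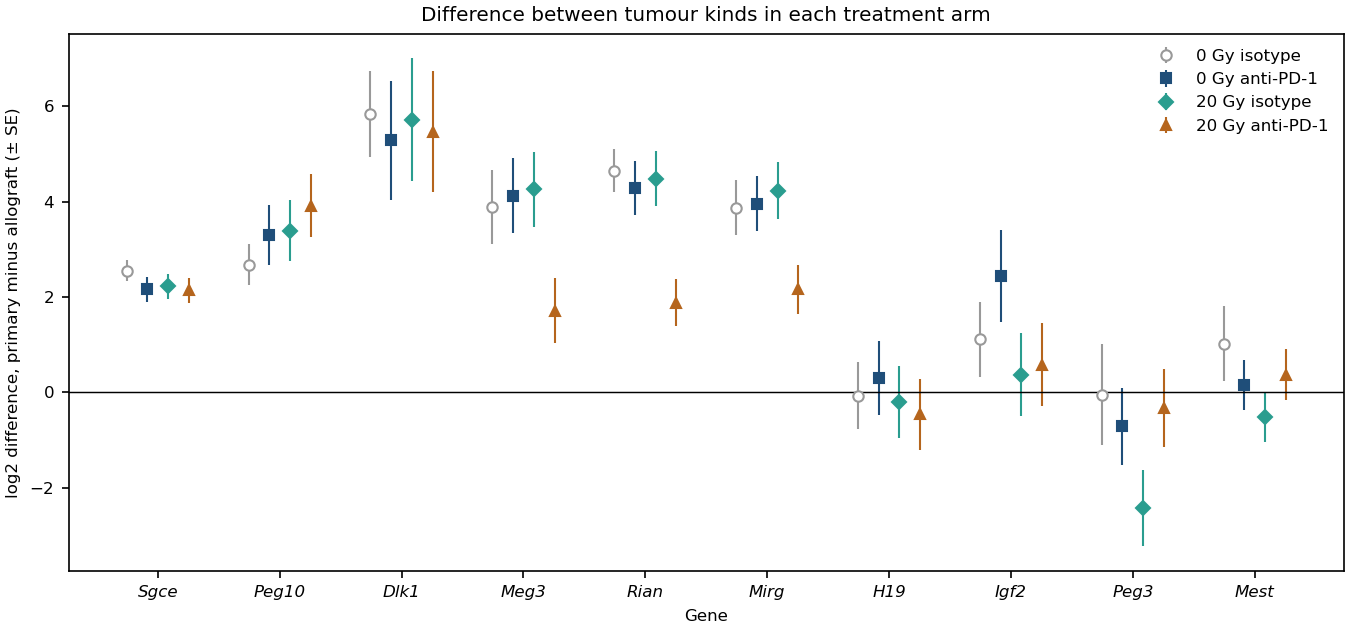
edgeR log2 difference between primary tumours and allografts for each gene, with 1 SE, in the untreated isotype arm (open circles) and the 3 treated arms, as a description. Sgce stays between 2.14 and 2.56 in all 4 arms, and Meg3, Rian and Mirg are lowest under 20 Gy with anti-PD-1, where they stand at 2.53, 2.81 and 2.62 without allograft replicate 2.

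Of 44 tested genes on a list of other imprinted genes, 1 was called higher in primary tumours in all 3 treated arms, as were 187 of all 19327 (0.968%). It was Ndn, the necdin gene, with medians of 68.9 CPM in primary tumours (1.03 to 239) and 9.0 CPM in allografts (2.65 to 16.6). Single arms called more of that list: 8 of 44 higher and 1 lower under anti-PD-1 at 0 Gy, where 3.97% of all genes were called higher and 3.42% lower, 7 higher and 1 lower under isotype with 20 Gy (2.42% and 2.47%), and 2 higher and 0 lower under anti-PD-1 with 20 Gy (3.73% and 3.05%). Among them, Begain, a gene in the flank of Dlk1, was higher by 2.11 (SE 0.52, adjusted p 0.00824) and 2.25 (SE 0.53, adjusted p 0.00757) in the first and second of these arms. Of 15 tested imprint regulators, the factors that set or keep the methylation marks, 0 were called in any of the 3 treated arms. In the untreated isotype tumours 9 of 40 tested genes on the list of other imprinted genes were called higher and 0 lower. Of all genes 6.03% were called higher there and 3.99% lower.

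Over all genes 7.39%, 4.89% and 6.77% were called between the kinds, in either direction, in the 3 treated arms in the order above. Without single tumours the numbers called were 630 to 1517 (from 1428), 353 to 924 (from 946) and 155 to 2356 (from 1309); the 630 came without allograft replicate 1 of the first arm and the 353 without allograft replicate 4 of the second. For Sgce, 0 of 11 tested genes of the dystrophin-sarcoglycan complex, the muscle membrane complex to which sarcoglycans belong, were called between the kinds in any treated arm. Of 15 genes of the IGF axis 1, 2 and 1 were called. Igfbp4, a binding protein that sequesters IGF, was lower in primary tumours under anti-PD-1 at 0 Gy (868 against 2377 CPM, log2 -1.45, SE 0.32, adjusted p 0.00346) and under isotype with 20 Gy (-1.91, SE 0.32, adjusted p 0.000258). Igfbp2, of the same family, was higher in both 20 Gy arms, by 4.04 (SE 0.95, adjusted p 0.00764) under isotype and 3.44 (SE 0.91, adjusted p 0.0201) under anti-PD-1. Of 12 tested Notch pathway genes, Dll1, a Notch ligand, was lower under isotype with 20 Gy, at 9.25 against 34.6 CPM (log2 -1.90, SE 0.37, adjusted p 0.00126), and 0 were called in the other arms.

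Markers of other cell types moved in part with tumour kind. Summed levels of 8 fibroblast and mesenchymal markers had group medians of 11360 to 20130 CPM in primary tumours and 6440 to 12530 CPM in allografts, 16 skeletal muscle markers 1742 to 2419 CPM and 6525 to 7949 CPM, and 8 muscle progenitor markers 131.4 to 329 CPM and 718 to 1248 CPM. The 14 leukocyte markers had summed medians of 1005 and 1080 CPM in irradiated primary tumours under isotype and anti-PD-1 and of 1589 and 1664 CPM in the corresponding allografts; at 0 Gy the medians were 814 and 946 CPM against 695 and 935 CPM. In the treated arms the genes of these lists that were called were Ptprc, the pan-leukocyte marker CD45, lower in primary tumours in both 20 Gy arms (log2 -1.13 and -1.44, edgeR adjusted p 0.0448 and 0.0108), Nkg7, a cytotoxic lymphocyte gene, lower under anti-PD-1 at 0 Gy (-1.78, adjusted p 0.0484), and Pdgfrb, a mesenchymal receptor, higher under anti-PD-1 with 20 Gy (1.41, adjusted p 0.0449). In the untreated isotype tumours, where 6.03% of all genes were called higher and 3.99% lower, 4 of 8 fibroblast markers were higher in primary tumours, namely Dpt (log2 2.51), Lum (3.24), Col1a2 (1.67) and Pdgfrb (1.15), with edgeR adjusted p of 0.0124 to 0.0477. There 3 of 14 leukocyte markers were lower, the T cell genes Cd8a (-2.19) and Cd3e (-1.78) and the dendritic cell gene Itgax (-1.09), as was the muscle progenitor gene Cdh15 (-2.28), with edgeR adjusted p of 0.0283 to 0.0427. All genes called in these untreated tumours numbered 1738, and 732 without allograft replicate 2 and 2187 without primary replicate 4. Markers at 0 throughout a group were 1 muscle progenitor gene in each 0 Gy anti-PD-1 group. Within primary tumours Peg10 had r of -0.60 with the mean log2 level of the leukocyte markers and 0.53 with that of the proliferation markers. Within allografts these were -0.13 and 0.34.

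With the leukocyte markers as a covariate the differences of Peg10 between the kinds were 2.72, 2.80 and 3.27 in the 3 arms in the order above, those of Dlk1 4.90, 5.04 and 4.78, and those of Mirg 3.73, 4.14 and 1.83. All genes called then numbered 885, 1328 and 148 of 19327, against 1428, 946 and 1309 without it. They numbered 1395, 1115 and 1453 with the muscle markers and 978, 966 and 736 with the first digit of the animal identifier; with these covariates Peg10 stood between 3.06 and 3.87 over the 3 arms, and Dlk1 between 5.18 and 5.73. The part of the fibroblast and muscle progenitor markers in these differences was not tested.

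By edgeR's calls, Mest fell after 20 Gy in 2 of the 4 comparisons between doses, and it had values of the same sign in the others. In untreated allografts under isotype Mest had 55.3, 104.9, 70.5 and 65.4 CPM, and after 20 Gy 25.5, 36.8, 50.6 and 34.4 CPM. All 4 irradiated allografts lay below the unirradiated ones, as for 4.67% of all genes, but the log2 difference of -0.98 (SE 0.29) had an adjusted p of 0.0637. Under anti-PD-1 the levels were 57.2, 49.9, 110.7 and 69.1 CPM at 0 Gy and 27.9, 42.5, 24.2 and 29.0 CPM at 20 Gy, again without overlap, as for 3.39% of all genes. There Mest fell by 1.21 on the log2 scale (SE 0.29, edgeR adjusted p 0.0311). In these allografts the 10 proliferation markers had summed medians of 1035 CPM at 0 Gy and 699 CPM at 20 Gy, with Bub1 called lower by edgeR. Their part in the fall of Mest was not tested. Of the leukocyte markers, Ptprc, Itgax and Cd68 were called higher.

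In primary tumours under isotype Mest spread from 27.8 to 509 CPM (median 67.8) at 0 Gy and from 16.02 to 39.7 CPM (median 24.8) at 20 Gy, with overlap. Replicates 3 and 8 of the 0 Gy group, at 509 and 368 CPM, stood far above the other 6. Mest fell by 2.52 on the log2 scale (SE 0.52, edgeR adjusted p 0.00142), and by 1.89 without replicate 3 of the 0 Gy group, the smallest fall when single tumours were left out (the largest was 2.67). Under anti-PD-1 the primary tumours had 40.9 to 234 CPM (median 48.9) at 0 Gy and 20.4 to 64.7 CPM (median 36.7) at 20 Gy, a log2 difference of -0.98 (SE 0.50, adjusted p 0.229).

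Lower calls made up 0.828% of all genes in allografts under anti-PD-1 and 6.64% in primary tumours under isotype. The allograft call was lost without anti-PD-1 replicates 3 or 4 of the 0 Gy group (adjusted p 0.066 and 0.0799) and replicates 1 or 3 of the 20 Gy group (0.0611 and 0.104), and in a fit of all 48 tumours (adjusted p 0.40). Without single tumours the log2 difference of Mest there ran from -1.40 to -0.90. Leukocyte markers, 14 genes, had summed medians of 935 CPM at 0 Gy and 1664 CPM at 20 Gy in the allografts under anti-PD-1, and 814 and 1005 CPM in the primary tumours under isotype. With the leukocyte markers as a covariate, the primary isotype call was lost (log2 -1.84, adjusted p 0.0847) and the allograft call under anti-PD-1 was kept (log2 -1.37, adjusted p 0.0168). On the strand opposite to Mest lies Copg2, a coat protein gene that overlaps it; the counting's strand setting is not given in the sources used here, so reads of the pair may have been shared.

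Rian was the other member that edgeR called between doses, and in 1 comparison. In primary tumours under anti-PD-1 it had 83.2 to 409 CPM (median 177) at 0 Gy and 20.9 to 120 CPM (median 83.5) at 20 Gy, with overlap. Rian fell by 1.42 on the log2 scale (SE 0.33, edgeR adjusted p 0.00807), where 1.86% of all genes were called lower, and by 1.21 to 1.54 without single tumours. Its cluster neighbours had values of the same sign that edgeR did not call: Mirg at -1.09 (SE 0.40, adjusted p 0.0853), Meg3 at -0.94 (SE 0.48, adjusted p 0.238) and Dlk1 at -1.96 (SE 0.85, adjusted p 0.158), which was -1.11 without 0 Gy replicate 5. DESeq2 did call Mirg in this comparison. Under isotype the dose difference of Rian in primary tumours was -0.36, and those of Mirg and Meg3 were 0.07 and 0.30.

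Markers of other cells moved with dose in the same primary tumours. Under anti-PD-1 all 16 skeletal muscle markers had log2 differences above 0 (median 2.78) with 0 called, and their summed median was 1742 CPM at 0 Gy and 2419 CPM at 20 Gy, with the highest irradiated tumour at 100700 CPM. Of the 14 leukocyte markers 12 were above 0 (median 0.72) and 2 were called higher, Itgax (1.51, edgeR adjusted p 0.00256) and the macrophage gene Cd68 (0.95, adjusted p 0.00546), with summed medians of 946 and 1080 CPM. Cdh15, a muscle progenitor gene, was called higher (2.52, adjusted p 0.0387), and 4 of 10 proliferation markers were called lower. With the muscle markers as a covariate Rian differed by -1.45 between doses (edgeR adjusted p 0.00554), and with the leukocyte markers by -1.35 (adjusted p 0.0149). Under isotype 16 of 16 muscle markers were above 0 (median 2.21, 0 called), 4 of 14 leukocyte markers were called higher and 6 of 10 proliferation markers lower, and with the muscle covariate Mest differed by -2.52 (edgeR adjusted p 0.00216). The part of the proliferation and muscle progenitor markers in the falls of Rian and Mest was not tested.

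DESeq2 also called Dlk1 in allografts and Mirg in primary tumours between doses, both under anti-PD-1. By edgeR the 8 members other than Mest and Rian were called in 0 of the 4 dose comparisons. In those comparisons 5.14% (allografts, isotype), 3.96% (allografts, anti-PD-1), 14.5% (primary, isotype) and 7.92% (primary, anti-PD-1) of all genes were called. These shares move with single tumours. For allografts 912 genes under isotype became 294 without 0 Gy replicate 2 and 1415 without 0 Gy replicate 3, and 703 under anti-PD-1 became 184 without 0 Gy replicate 4 and 1275 without 20 Gy replicate 4. In primary tumours 2575 under isotype became 1706 without 20 Gy replicate 5 (3091 at most), and 1407 under anti-PD-1 became 896 without 20 Gy replicate 4 (1928 at most). Among isotype allografts the animal identifier began with 4 in 0 of 4 at 0 Gy and 3 of 4 at 20 Gy, and with this digit as a covariate 196 of 17746 genes were called there, against 912, and Mest stood at -0.76 (edgeR adjusted p 0.362). Peg3 had 4.58 to 9.84 CPM at 0 Gy and 4.77, 25.8, 24.6 and 16.9 CPM at 20 Gy in isotype allografts, a log2 difference of 1.38 (SE 0.51, adjusted p 0.149). In primary tumours under anti-PD-1 the dose difference of Sgce was -0.40 (SE 0.18, adjusted p 0.173). Of 41 or 42 tested genes on the list of other imprinted genes, 1, 1, 6 and 2 were called in the 4 comparisons in that order. They include Osbpl5, a lipid transfer protein gene, which fell in primary tumours by 0.76 under isotype (SE 0.17, adjusted p 0.00243) and by 0.64 under anti-PD-1 (SE 0.17, adjusted p 0.0166). Among 15 imprint regulators Uhrf1, which brings the maintenance methyltransferase to newly copied DNA, fell in primary tumours under isotype (114.2 to 68.5 CPM, log2 -0.72, SE 0.23, adjusted p 0.029) and under anti-PD-1 (111.1 to 64.9 CPM, -0.77, SE 0.23, adjusted p 0.0334). The 10 proliferation markers had summed medians of 1083 and 606 CPM at 0 and 20 Gy in primary tumours under isotype, and 969 and 600 CPM under anti-PD-1; their part in these falls was not tested.

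**Figure D3:**
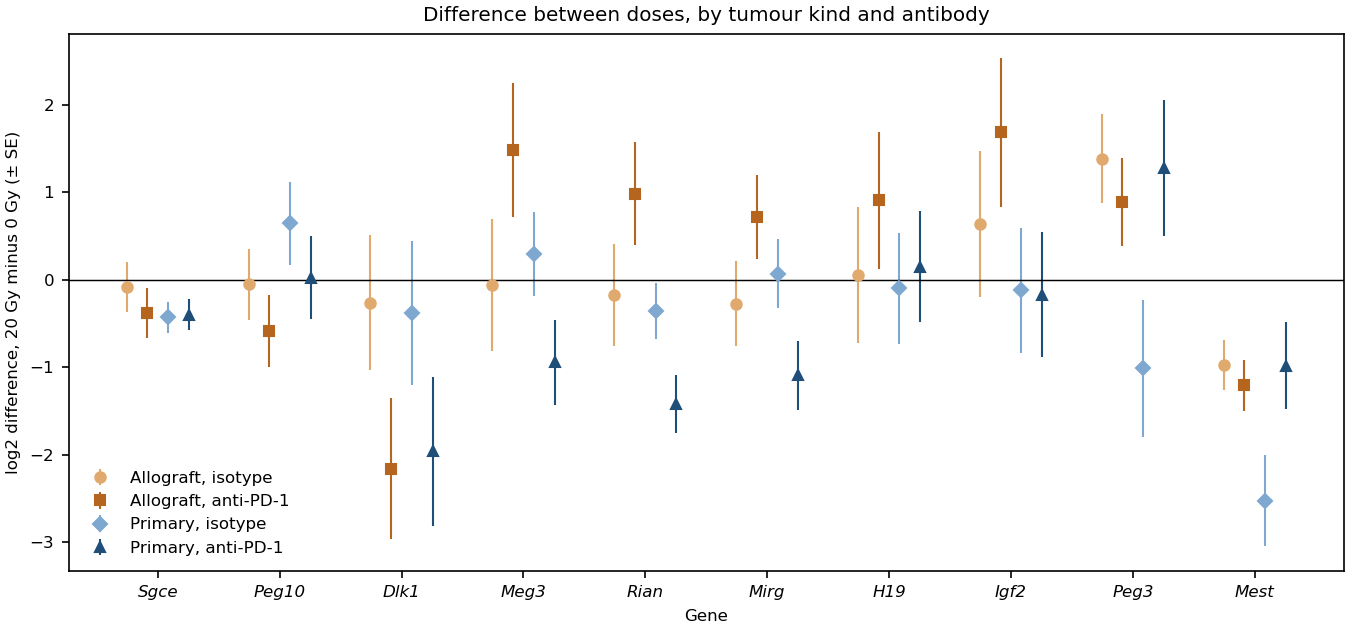
edgeR log2 difference between 20 Gy and 0 Gy for each gene, with 1 SE, in allografts (n = 4 against 4) and primary tumours (n = 8 against 8) under each antibody. Mest is below 0 in all 4 comparisons (-2.52 to -0.98), and Meg3, Rian and Mirg lie above 0 in allografts and below 0 in primary tumours under anti-PD-1; without allograft replicate 2 of the 20 Gy anti-PD-1 group the allograft values are 0.64, 0.05 and 0.24 in place of 1.48, 0.98 and 0.72.

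Anti-PD-1 against isotype gave 0 calls among the 10 members in each of 4 comparisons (2 tumour kinds, 2 doses), as it did among all genes (0.0%). At an unadjusted p below 0.05 edgeR had 299 genes in allografts at 0 Gy, 682 in allografts at 20 Gy, 412 in primary tumours at 0 Gy and 1443 in primary tumours at 20 Gy, and DESeq2 called 0, 0, 3 and 5, none of them a member. In irradiated primary tumours Rian had a median of 173 CPM (71.4 to 289) under isotype and 83.5 CPM (20.9 to 120) under anti-PD-1. Its log2 difference of -1.13 (SE 0.33) had an adjusted p of 0.549, and those of Mirg (-1.21, SE 0.40) and Meg3 (-1.25, SE 0.49) had adjusted p of 0.56 and 0.596. The corresponding allografts had differences of the opposite sign, 1.44 for Rian, 0.84 for Mirg and 1.27 for Meg3, each with an adjusted p of 0.682. Without anti-PD-1 replicate 2 these were 0.55, 0.41 and 0.47, and without isotype replicate 2 that of Meg3 was 2.06. Peg3 was higher under anti-PD-1 in irradiated primary tumours by 1.97 in the fit (SE 0.80, adjusted p 0.596).

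Whether dose or antibody acted differently in the kinds was tested as an interaction. At the anti-PD-1 arms, the dose difference in primary tumours minus that in allografts was -2.41 for Meg3 (SE 0.90), -1.80 for Mirg (SE 0.68) and -2.40 for Rian (SE 0.65), with an adjusted p of 0.905 for Meg3 and Mirg. For the antibody at 20 Gy these values were -2.55 (SE 0.91), -2.07 (SE 0.68) and -2.61 (SE 0.65), with an adjusted p of 0.512 for Meg3 and Mirg. Both sets rest in part on the same allograft, replicate 2 of the 20 Gy anti-PD-1 group: without it the dose values were -1.64 for Meg3, -1.38 for Mirg and -1.52 for Rian, and the antibody values -1.70, -1.59 and -1.65. Without isotype allograft replicate 2 the antibody value of Meg3 was -3.35. For Sgce the dose value was -0.02 (SE 0.33) and the antibody value -0.08 (SE 0.33). The remaining members had dose values from -1.86 (Igf2) to 0.61 (Peg10) and antibody values from -0.26 (H19) to 2.09 (Peg3). Without replicate 2 of the 20 Gy anti-PD-1 allografts, the dose value of Igf2 was -0.56 and the antibody value of Peg3 2.68. edgeR called 0 genes in either interaction, with 922 and 1864 at an unadjusted p below 0.05, and DESeq2 called 3 and 2, none of them a member.

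Meg3, Rian and Mirg varied together from tumour to tumour in both kinds, as did H19 and Igf2. Other cluster neighbours did so only in part. Dlk1 had positive r with Meg3, Rian and Mirg in primary tumours, but r of -0.08 to 0.03 in allografts. Sgce and Peg10 had r of 0.69 over primary tumours, but -0.07 over the unirradiated ones. After each group's mean log2 CPM was subtracted, Meg3 and Mirg had a Pearson r of 0.93 over the 32 primary tumours (Spearman rho 0.92), and 0.94 within each dose. Rian followed Mirg (r 0.89, rho 0.85) and Meg3 (r 0.82, rho 0.76). For these 3 pairs the adjusted permutation p of r was 3.2e-05, from the smallest p that 100000 permutations can give (1e-05), over 16 relations tested. Dlk1, read from the opposite parental copy, had lower values, with r of 0.56 to Rian (rho 0.47, adjusted p 0.00142), 0.45 to Mirg (rho 0.36, adjusted p 0.0159) and 0.40 to Meg3 (rho 0.32, adjusted p 0.0295). The rank correlations of Dlk1 with Mirg and Meg3 had adjusted permutation p of 0.0633 and 0.0876.

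In the 16 allografts the 3 noncoding RNAs were also tied, Meg3 with Rian at r 0.92 (rho 0.91, adjusted permutation p 3.2e-05), Meg3 with Mirg at 0.87 (rho 0.84, adjusted permutation p 5.33e-05) and Rian with Mirg at 0.77 (rho 0.75, adjusted permutation p 0.00128). Without the 2 tumours farthest from the median, r was 0.86, 0.83 and 0.64. Rian and Mirg had r of 0.28 at 0 Gy and 0.89 at 20 Gy. Dlk1 had r between -0.08 and 0.03 with the 3, with adjusted permutation p of 0.895 to 0.928.

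H19 and Igf2 had r of 0.94 in allografts (rho 0.92, adjusted permutation p 3.2e-05) and 0.68 in primary tumours (rho 0.68, adjusted permutation p 6e-05), and 0.92 and 0.58 without the 2 farthest tumours. Both also moved with skeletal muscle markers: r with their mean log2 level was 0.89 for H19 and 0.82 for Igf2 over allografts, and 0.68 and 0.31 over primary tumours. Peg3 (0.71), Rian (0.58) and Meg3 (0.51) moved with these markers in allografts as well, with 0.22, -0.31 and -0.15 over primary tumours. The remaining members had r of -0.27 (Peg10) to 0.35 (Mest) in allografts. With the muscle markers regressed out the correlation of H19 and Igf2 was 0.78 in allografts (adjusted permutation p 0.000356) and 0.68 in primary tumours (adjusted permutation p 0.0001). Sgce and Peg10, whose starts are 99 bp apart, had r of 0.69 in primary tumours (rho 0.60, adjusted permutation p 6e-05), which was -0.07 at 0 Gy and 0.87 at 20 Gy, and 0.51 without the 2 farthest tumours. In primary tumours the relation of Sgce with Peg10 was thus seen at 20 Gy and not at 0 Gy, a difference that was not tested. In allografts r was 0.56 (0.74 at 0 Gy and 0.38 at 20 Gy, adjusted permutation p 0.0295), with a rho of 0.47 whose adjusted permutation p was 0.0876. Without the 2 tumours farthest from the median of Sgce, which also narrows its range, r was 0.28. Pairs of members from different clusters, 37 in number, had a median r of -0.10 in primary tumours (-0.36 to 0.42) and 0.36 in allografts (-0.42 to 0.85, the highest for H19 and Peg3); these are given without a test.

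**Figure D4:**
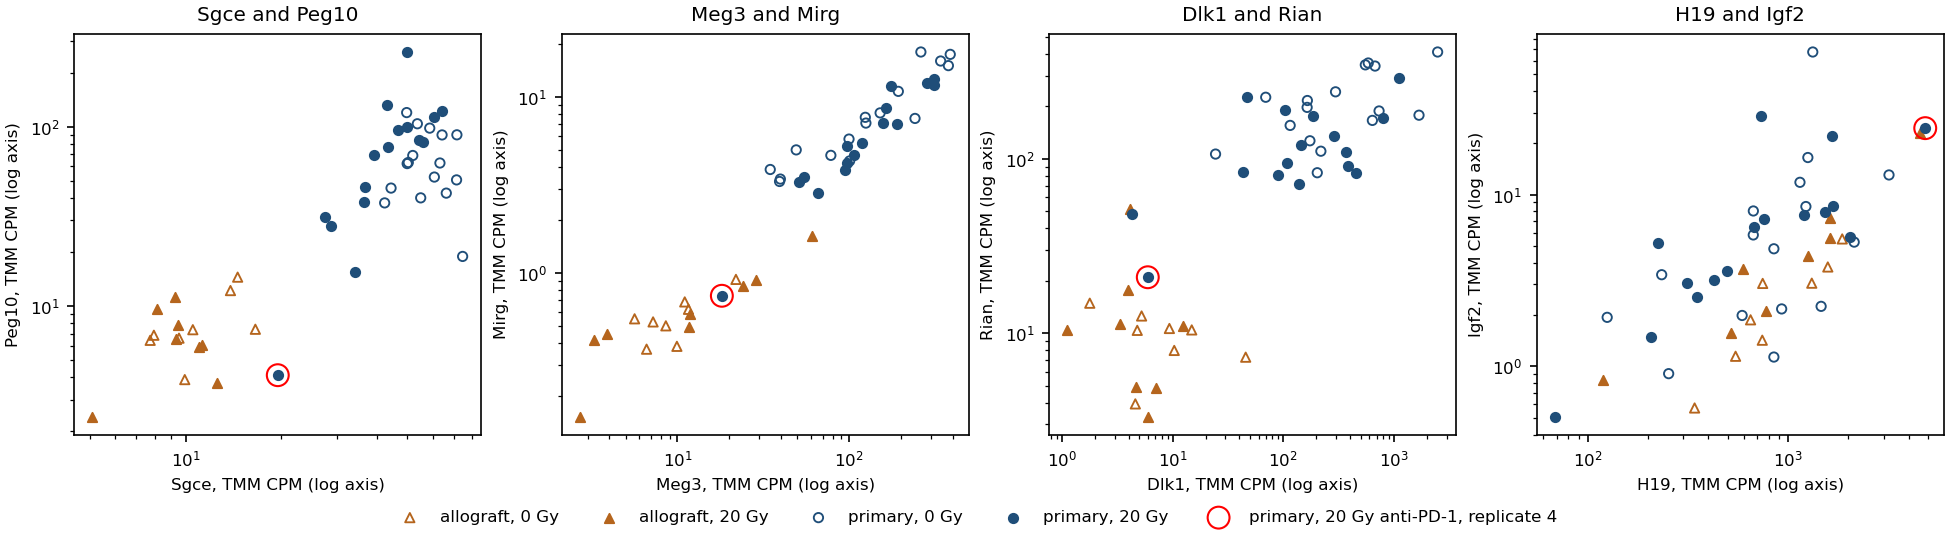
TMM-scaled CPM (log axes) of 4 pairs of cluster neighbours in 32 primary tumours (circles) and 16 allografts (triangles), open at 0 Gy and filled at 20 Gy; the red ring marks primary replicate 4 of the 20 Gy anti-PD-1 group. Meg3 and Mirg follow a common line over both kinds, and the ringed tumour lies among the allografts for Meg3, Mirg, Dlk1 and Peg10.

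A single primary tumour, replicate 4 of the 20 Gy anti-PD-1 group, had the lowest level of all 32 for 5 of the 6 genes of the Sgce and Dlk1 clusters: Sgce at 19.5, Peg10 at 4.11, Meg3 at 18.1, Rian at 20.9 and Mirg at 0.742 CPM. Its Dlk1 level of 5.97 CPM was among the lowest 3, under which only replicate 7 of the same group stood, at 4.32 CPM. The same tumour had the highest H19 of the primary tumours, 4846 CPM. It also had the highest skeletal muscle marker sum (100700 CPM), leukocyte marker sum (2564 CPM) and mitochondrial share (2.32%) of the 32. Among allografts, replicate 2 of the 20 Gy anti-PD-1 group had the highest Meg3 (60.5 CPM), Rian (51.3 CPM) and Mirg (1.62 CPM), with an H19 level of 4551 CPM. This allograft had the highest mitochondrial share (2.71%) and leukocyte sum (2378 CPM) of the 16, and the third highest muscle sum (17520 CPM). The part of these measures in the levels of both tumours was not tested. Without the low primary tumour the fall of Rian after 20 Gy under anti-PD-1 was 1.28 on the log2 scale (edgeR adjusted p 0.0142), and the differences between the kinds in that arm were 4.12 for Peg10, 2.34 for Mirg and 5.68 for Dlk1.

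The genes most like each member over the primary tumours were taken from 14355 genes whose mean reached 1 CPM, by Pearson r of group-centred log2 CPM over 32 tumours, as a description. For Sgce they were Calu (0.80), Lman1 (0.75) and Mbtps1 (0.75), and for Rian Plag1 (0.70), Anks3 (0.65) and Dixdc1 (0.64). Meg3 and Mirg shared Klhdc8b (0.83 and 0.72) and Dnm3os (0.75 and 0.74). Peg10 was nearest to Spin4 (0.80), Dlk1 to Itgbl1 (0.69), Igf2 to Cadm4 (0.70), and Mest to Arhgef28 and Ccn4 (both 0.67). For H19 the nearest were Gm27483 (0.97) and Gm27786 (0.92), which overlap it on the opposite strand and may share its reads, and then Tpbgl (0.80).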

How the data were processed

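The authors deposited 1 table of read counts per gene and tumour (48 poly(A) libraries made with a strand-marking kit, per the labels' protocols). Reads were handled with Trimmomatic 0.36, STAR and HTSeq on mm10, per the submitters' processing notes; the annotation and the strand setting are not given in the sources used here. Gene symbols and positions came from GENCODE M21 on GRCm38, the same assembly as mm10, and named 36796 of 36854 identifiers.

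Groups followed the source labels. Replicate numbers are names in accession order. Counts were tested with edgeR 4.0.16 (R 4.3.3): filterByExpr by group, TMM, quasi-likelihood F test and Benjamini-Hochberg adjustment over all genes of a fit, called below 0.05. Allografts (17746 genes), primary tumours (17770) and all tumours (19327) were fitted separately. Standard errors were derived from the F statistic. The untreated isotype tumours of both kinds (17357 genes) were fitted for description only, and between the kinds members are given as values and counts from which nothing is read, because their choice was not limited to untreated tumours. No pair of libraries within a group was close to a duplicate (the lowest chi-square divided by its degrees of freedom was 93.6 over 136 pairs). Correlations used log2 CPM with a prior count of 1 and 2-sided permutation tests (100000 permutations).

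The members and all gene lists were chosen with earlier results of these data known. All 10 members are named throughout; from other lists, up to 5 called genes per comparison with the smallest p and at least 5 CPM. Alternatives were DESeq2 1.42.0 (test and size factors), no filter, marker or identifier-digit covariates, another set of fitted tumours and single tumours left out.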

Additional observations from a re-analysis of the deposited data

Results flagged for a closer look

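In 10 of 80 sets of 4 to 8 tumours (10 genes, 8 groups), the highest tumour stood apart from the rest of its group by Dixon's criterion. Chance meets it in about 1 of 20 sets of normally distributed values; these were linear CPM, for which that rate was not tested, and all 10 were high values. Dlk1 reached 1690 CPM in primary replicate 6 of the 0 Gy isotype group (others 165 to 676) and 2490 CPM in primary replicate 5 of the 0 Gy anti-PD-1 group (others 24.5 to 736). H19 reached 3194 CPM in primary replicate 3 of the 0 Gy isotype group (others 124.9 to 1147), 1580 CPM in allograft replicate 1 of the 0 Gy anti-PD-1 group (others 649.9 to 747) and 4846 CPM in primary replicate 4 of the 20 Gy anti-PD-1 group (others 68.6 to 1665). That last tumour was also the lowest of 32 for Sgce, Peg10, Meg3, Rian and Mirg.

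Igf2 stood apart in allograft replicate 2 of the 20 Gy anti-PD-1 group at 22.7 CPM (others 1.56 to 4.41), the allograft with the highest Meg3, Rian and Mirg, and in primary replicate 6 of the 0 Gy anti-PD-1 group at 67.5 CPM (others 1.13 to 16.4). Peg10 stood apart in allograft replicate 3 of the 0 Gy isotype group at 14.5 CPM (others 6.43 to 7.38) and in primary replicate 8 of the 20 Gy isotype group at 260.5 CPM (others 15.5 to 121.7). Mest reached 234 CPM in primary replicate 3 of the 0 Gy anti-PD-1 group (others 40.9 to 116.6).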

How the results depend on the processing

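The counts of called members below cover the 8 members other than Sgce and Rian between the kinds, and all 10 elsewhere. Those between the kinds belong to a contrast that the choice used. Nothing is read from them, from their stability or from the sign of the values called there. Under anti-PD-1 with 20 Gy the count between the kinds was 3, with 1309 of 19327 genes called, and became 0 when only the 2 groups compared were fitted, with 1 of 17674 genes called; without single tumours it was 1 to 3, with 155 genes at the 1 and 2356 at most. Under anti-PD-1 at 0 Gy it was 4 (4 to 4 without single tumours) and under isotype with 20 Gy 4 (4 to 5). For dose in allografts under isotype the count was 0 and became 1 with the leukocyte markers as a covariate and with DESeq2 (Mest, log2 -1.10 and -0.999, adjusted p 0.0251 and 0.0151), and 0 to 1 without single tumours, the 1 arising without 20 Gy isotype replicate 1. For dose in allografts under anti-PD-1 it was 1 and became 0 in the fit of all 48 tumours, 2 with DESeq2 (Mest and Dlk1) and 0 to 1 without single tumours. For dose in primary tumours it was 1 under isotype and became 0 with the leukocyte covariate, and 1 under anti-PD-1 and became 2 with DESeq2 (Rian and Mirg). The causes of these shifts were not tested. No called value changed sign under these alternatives, and 13 of 16 Pearson correlations had an adjusted p below 0.05, as many with the other prior count, with DESeq2's size factors and with the muscle markers regressed out; by Spearman's rho 10 of 16 had one. No paired analysis was made, because the labels give each tumour a different animal identifier and name no pairs. Depth limited Mirg and Peg3 most, which had as few as 6 and 5 counts in a tumour.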

Other observations

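Genes within 1 Mb of the members were looked at after the values of the members were seen. Over all genes, 1.31% were called between the kinds in all 3 treated arms in 1 direction and 13.6% in at least 1 arm. Around Sgce and Peg10, 16 flanking genes were tested, of which 0 were called in all 3 arms and 4 in some arm. Tfpi2, a serine protease inhibitor gene, was higher in primary tumours in both 20 Gy arms (log2 1.75 and 2.20, edgeR adjusted p 0.0296 and 0.00926), with medians of 43.1 and 17.9 CPM over all tumours of each kind. Ppp1r9a, also imprinted, was higher in primary tumours under anti-PD-1 at 0 Gy (log2 2.15, edgeR adjusted p 0.00434) and under isotype with 20 Gy (1.85, adjusted p 0.0182), with medians of 3.67 and 1.12 CPM. Around the Dlk1 to Mirg interval, 25 were tested and 7 called in some arm. Of the 7, Rtl1, Mir433, Mir434 and Gm26945 (inside Rian on the same strand) were at medians of 0.242, 0.193, 0.134 and 0.122 CPM in primary tumours and 0.0, 0.019, 0.0 and 0.0 CPM in allografts, so they passed the filter on low counts through the primary tumours and nothing is read from their calls. Dio3, the paternally expressed deiodinase gene at the far end of the domain, went the other way: its median was 1.26 CPM in primary tumours and 5.49 CPM in allografts, and it was called lower in 1 arm (anti-PD-1 at 0 Gy, log2 -2.88, adjusted p 0.0351).

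Around H19 and Igf2, 35 were tested, 0 were called in all 3 arms and 5 in some arm; Cdkn1c, the imprinted cell cycle inhibitor gene, had medians of 95.8 and 22.7 CPM and was called in 1 arm (log2 2.40, adjusted p 0.0449), with adjusted p of 0.0758 and 0.06 in the others. Around Peg3 0 of 17 flanking genes were called in any arm. Around Mest 0 of 25 were called in all 3 arms and 3 in some arm, each of the 3 with an allograft median of at most 0.104 CPM (Cpa4, Gm43154 and Gm13848), so nothing is read from these calls either.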
